A study of Mus musculus with 16 samples.

Results

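The collagens and the genes of matrix assembly were followed through the stroma of the mouse colon in dextran sulfate sodium (DSS) colitis. Members were all gene symbols of the form Col, number, a, number, together with Fn1, Lox, Loxl1, Loxl2, Loxl3, Postn, Sparc, Tnc, Fbn1, Dcn and Lum. The rule found 48 members, 37 collagens and 11 others, among 16039 genes measured. Single-cell RNA-seq (10x Genomics, version 3) was made from the transverse colon of 16 C57Bl/6J female mice, 7 weeks old, 1 library per mouse. Of these, 6 drank 4% DSS, an irritant of the colon lining, and were given 10 mg/kg of SZN-1326-p, a Wnt pathway activator that acts through Frizzled receptors, on day 4. A further 6 received the same DSS and an anti-GFP antibody on day 4, and 4 were uninjured. Cells were collected 24 h (day 5) or 48 h (day 6) after dosing, from 3 mice per antibody and time and from 2 uninjured mice per time. Uninjured mice had neither DSS nor antibody, so that effects of DSS and of anti-GFP dosing cannot be told apart in the comparison of anti-GFP with uninjured mice.

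Collagens are triple-helical proteins secreted mainly by fibroblasts. Fibrillar collagens (types I, III, V, XI, XXIV and XXVII) form load-bearing fibres, type IV forms the sheet of the basement membrane, type VI forms beaded filaments around cells, and types XV and XVIII are multiplexins that sit in or beside basement membranes. The remaining members act on this scaffold or lie in it. Lysyl oxidases (Lox, Loxl1, Loxl2, Loxl3) cross-link it. Fibronectin (Fn1), tenascin C (Tnc), periostin (Postn) and Sparc are glycoproteins of the matrix, and fibrillin 1 (Fbn1) forms microfibrils. Decorin (Dcn) and lumican (Lum) are proteoglycans that bind collagen fibrils and set their width. In the colon, subepithelial fibroblasts and myofibroblasts lie against the crypt, and endothelial cells carry a basement membrane of their own.

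The start regions of the genes on which most of the results turn were taken from RefSeq (GRCm38.p6), as 300 bases from 250 before to 50 after the start. Col4a1 and Col4a2, which encode the chains of the commonest type IV collagen, lie head to head on chromosome 8, with starts 21 bases apart (11312826 on the minus strand and 11312805 on the plus strand). They are shown because both genes rose with DSS in fibroblasts. The 78 bases that both windows share, read on opposite strands, are in capitals. The windows are chr8:11312777-11313076 (minus) for Col4a1 and chr8:11312555-11312854 (plus) for Col4a2.
Col4a1: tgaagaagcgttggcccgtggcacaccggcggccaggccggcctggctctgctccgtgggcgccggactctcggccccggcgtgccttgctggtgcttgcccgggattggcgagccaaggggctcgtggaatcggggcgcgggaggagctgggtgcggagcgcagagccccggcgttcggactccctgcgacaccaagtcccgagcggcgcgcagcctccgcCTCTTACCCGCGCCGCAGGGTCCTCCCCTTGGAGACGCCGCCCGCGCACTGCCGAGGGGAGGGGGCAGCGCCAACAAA
Col4a2: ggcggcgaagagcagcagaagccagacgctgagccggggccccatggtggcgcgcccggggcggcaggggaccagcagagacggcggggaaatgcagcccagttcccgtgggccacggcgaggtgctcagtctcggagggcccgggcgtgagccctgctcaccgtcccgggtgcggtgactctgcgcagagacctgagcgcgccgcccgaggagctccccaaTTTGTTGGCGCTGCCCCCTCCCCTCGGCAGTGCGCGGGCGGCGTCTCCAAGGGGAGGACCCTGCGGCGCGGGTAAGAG
Col4a5 and Col4a6, which encode chains of another type IV network, are also paired head to head, on chromosome X, with starts 1343 bases apart. Col18a1 has 2 starts in the table, both on the minus strand of chromosome 10, and is shown because it had the largest difference of the members between fibroblasts of anti-GFP and uninjured mice. Capitals mark matches to the motifs searched. The window chr10:77166481-77166780 held 4 (1 CCAAT box and 3 GC boxes), and the window chr10:77113656-77113955 held none.
Col18a1 upstream start: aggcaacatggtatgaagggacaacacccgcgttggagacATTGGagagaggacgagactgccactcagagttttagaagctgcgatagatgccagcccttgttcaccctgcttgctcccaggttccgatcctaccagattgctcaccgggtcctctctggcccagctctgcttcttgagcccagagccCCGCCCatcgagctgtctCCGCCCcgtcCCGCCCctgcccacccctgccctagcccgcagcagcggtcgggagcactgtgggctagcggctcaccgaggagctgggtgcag
Col18a1 downstream start: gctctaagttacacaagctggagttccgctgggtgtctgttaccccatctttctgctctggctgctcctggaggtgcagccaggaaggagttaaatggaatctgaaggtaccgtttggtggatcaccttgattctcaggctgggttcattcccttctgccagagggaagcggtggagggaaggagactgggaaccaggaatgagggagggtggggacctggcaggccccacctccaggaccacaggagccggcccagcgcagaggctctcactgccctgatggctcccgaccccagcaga
Reads of this assay are counted at the 3' end, so that the counts do not tell the starts of Col18a1 apart. In all, 34 members had 39 windows among 32851 in the table. Motifs were searched on both strands. The GC box (GGGCGG) was in 23 of the 39 windows (59.0%), against 35.7% of all windows. The CCAAT box was in 33.3% of member windows against 37.4% of all, TATAAA in 17.9% against 13.6%, the hypoxia core ACGTG in 10.3% against 19.6%, and the AP-1 motif TGANTCA in 2.56% against 7.81%. These are letter matches and were not tested.

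The deposited matrix held 22717 cells, 936 to 2033 per mouse, and a mouse contributed 9616512 to 21335421 unique molecular identifiers (UMIs, counted molecules). The median cell held between 6459 and 11153.5 UMIs, depending on the mouse. Stromal cells by the deposited annotation numbered 7509, 237 to 737 per mouse, in 18 types, of which 9 were fibroblast types (5828 cells) and 2 endothelial (1008 cells). The types came from the authors' grouping of the same cells, with the members among the genes, so levels between types are descriptions. The same labels set which cells of each arm enter the fits within types, so tests within and between types hold only given these labels. Throughout, a level is the mean number of UMIs per cell after the authors' scaling for cell depth (normalized UMIs). Since UMIs are counted at the 3' end, a level does not scale with transcript length. In all, 4 libraries (SZN-1326-p mouse 1, anti-GFP mice 1 and 2 and uninjured mouse 1, each at 24 h) were set apart as 1 group for an alternative fit. The sample labels do not give this grouping, and no measure that defines it is given here. Collagens took 2.17% to 2.71% of fibroblast UMIs in these 4 against 1.53% to 2.41% in the other 12, ranges that overlap. The summed level of 6 epithelial markers in fibroblasts was 3.88 ± 1.44 in SZN-1326-p mice, 1.90 ± 0.727 in anti-GFP mice and 6.16 ± 1.82 in uninjured mice (SD, n = 6, 6 and 4), and its part in the results was not tested. The median mitochondrial share of UMIs, a sign of cell quality, reached 18.9% for mouse 2 (24 h) and 24.1% for mouse 3 (48 h) of the SZN-1326-p arm, and was 5.06% to 11.6% in the other mice given DSS, and 19.2% to 26.1% in uninjured mice. Its part in the DSS comparison was not tested, and no member was called for SZN-1326-p without those 2 mice. In all, 64 cell barcodes occurred in more than 1 mouse, and 41 stromal cells had such a barcode.

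Nearly all collagen RNA lay in the stroma and, there, in fibroblasts. The stroma held 98.3% ± 1.13 of all collagen UMIs in SZN-1326-p mice, 99.3% ± 0.358 in anti-GFP mice and 98.0% ± 0.658 in uninjured mice. Of the stromal collagen UMIs, fibroblast types held 95.5% in SZN-1326-p, 94.5% in anti-GFP and 96.0% in uninjured mice. Summed over all members, the level in fibroblasts was 289 ± 22.9 in SZN-1326-p mice, 304 ± 24.1 in anti-GFP mice and 293 ± 30.6 in uninjured mice. In epithelial cells, which should make little of these RNAs, it was 1.33 in SZN-1326-p, 1.32 in anti-GFP and 1.19 in uninjured mice. For 39 of the 48 members, more than 90% of UMIs were in stromal cells. By role, the fibrillar collagens had most stromal UMIs (778132), followed by the glycoproteins (472584), the proteoglycans (333615), the beaded-filament and anchoring collagens (181888), the network-forming collagens (165923), the multiplexins (86434), the fibril-associated collagens (54977), the cross-linking enzymes (37303) and the transmembrane collagens (4957).

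Each fibroblast type had its own matrix profile, shown in the heat map of levels by type. Values are means ± SD over mice with at least 20 cells of a type (16 mice for BaseCryptFB2 and CryptFB1, 15 for MyoFB, 12 for InjuryCryptFB2, 10 for CryptFB2, 9 for InjuryCryptFB1, 4 for BaseCryptFB1). BaseCryptFB1 was measured in uninjured mice only and the injury types in DSS mice only, so a mean over all mice of a type mixes arms, and levels by arm are given where the order depends on them. BaseCryptFB2 had the highest level of the proteoglycan Dcn, at 145 ± 24.0 over all mice against 63.2 in BaseCryptFB1, 17.2 in CryptFB1 and 10.3 in MyoFB, and it was the highest of these types in each arm. The order of Col3a1, which encodes the chain of type III collagen, depended on the arm. In BaseCryptFB2 it was at 129 ± 34.7 in SZN-1326-p mice and 134 ± 27.5 in anti-GFP mice, above the others of these 7 types in those arms (31.3 to 50.8 in SZN-1326-p and 32.1 to 56.6 in anti-GFP mice). In uninjured mice it was at 46.1 ± 11.2 in BaseCryptFB2, 54.7 ± 12.2 in BaseCryptFB1 and 53.3 ± 15.8 in CryptFB1, which do not differ beyond their spread. Col8a1, a short-chain network collagen, was at 4.65 ± 1.81 in BaseCryptFB2 and at 0.305 or below in the other 6 types. Col14a1, which coats fibrils, was at 9.30 in BaseCryptFB2, 3.06 in BaseCryptFB1 and 0.948 in InjuryCryptFB1, against 0.0488 in CryptFB1.

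CryptFB1, CryptFB2 and the injury types had another member high in DSS mice. Col18a1, the multiplexin that releases endostatin, was in anti-GFP mice at 21.9 ± 2.76 in CryptFB1, 18.8 ± 2.07 in CryptFB2, 17.5 ± 3.27 in InjuryCryptFB1 and 15.0 ± 2.79 in InjuryCryptFB2, against 3.52 ± 1.01 in MyoFB and 0.516 ± 0.172 in BaseCryptFB2. In uninjured mice it was at 1.33 ± 0.831 in CryptFB1 and 1.15 ± 0.149 in BaseCryptFB1, which do not differ beyond their spread, and at 0.450 in MyoFB and 0.436 in BaseCryptFB2. The paired genes Col4a5 and Col4a6 followed the crypt types, with Col4a5 at 3.80 ± 0.902 in CryptFB2 and 2.85 ± 1.05 in CryptFB1, and Col4a6 at 1.37 and 1.14. Col4a5 was at 0.365 or below in the other 5 of these types. Postn, a matricellular protein, was highest in MyoFB (22.7 ± 4.42) and BaseCryptFB1 (22.5 ± 3.29), which did not differ beyond their spread, and lowest of the 7 in BaseCryptFB2 (2.52). Lox, a cross-linking enzyme, was at 2.61 in SZN-1326-p mice and 2.89 in anti-GFP mice in BaseCryptFB2, the highest of the types in both arms, while in uninjured mice it was at 0.514 ± 0.260 in BaseCryptFB2 and 1.63 ± 0.209 in BaseCryptFB1. The labels were set against marker genes: 6 fibroblast markers had a mean level of 35.2 in BaseCryptFB2 and 6.22 in CryptFB1 but 2.21 in MyoFB, where 5 smooth muscle markers had 20.5, led by Acta2 (60.1 ± 23.0, n = 15), the actin of contractile cells.

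Outside fibroblasts the members were fewer and more selective. Blood endothelium (VascEndo, 16 mice) had Col4a1 at 16.9 ± 3.20 in SZN-1326-p mice, 20.9 ± 6.96 in anti-GFP mice and 13.2 ± 4.65 in uninjured mice. Its Col15a1 was at 5.21 ± 0.955 in SZN-1326-p mice, 6.27 ± 1.95 in anti-GFP mice and 4.08 ± 0.480 in uninjured mice, where BaseCryptFB1 had 4.74 ± 0.669. Lymphatic endothelium (LymphEndo, 6 mice) had Col23a1, a transmembrane collagen, at 3.19 against 0.0231 in VascEndo. Col13a1, another transmembrane collagen, showed the opposite order, at 0.015 in LymphEndo against 2.15 in VascEndo. Glial cells, given as pooled cells because too few came from each mouse, had Sparc at 55.5 and 55.3, Col18a1 at 9.44 and 9.54, and Col20a1 at 4.31 and 3.43 in the types Glia1 and Glia2. The type labelled Pericytes had mean levels of 9.83 for 4 pericyte markers and 7.36 for 5 blood endothelial markers, and the type labelled ICCajal 10.3 for 5 smooth muscle markers against 5.79 for 2 markers of interstitial cells of Cajal, so that values of these 2 small types go by their labels only.

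**Figure D1:**
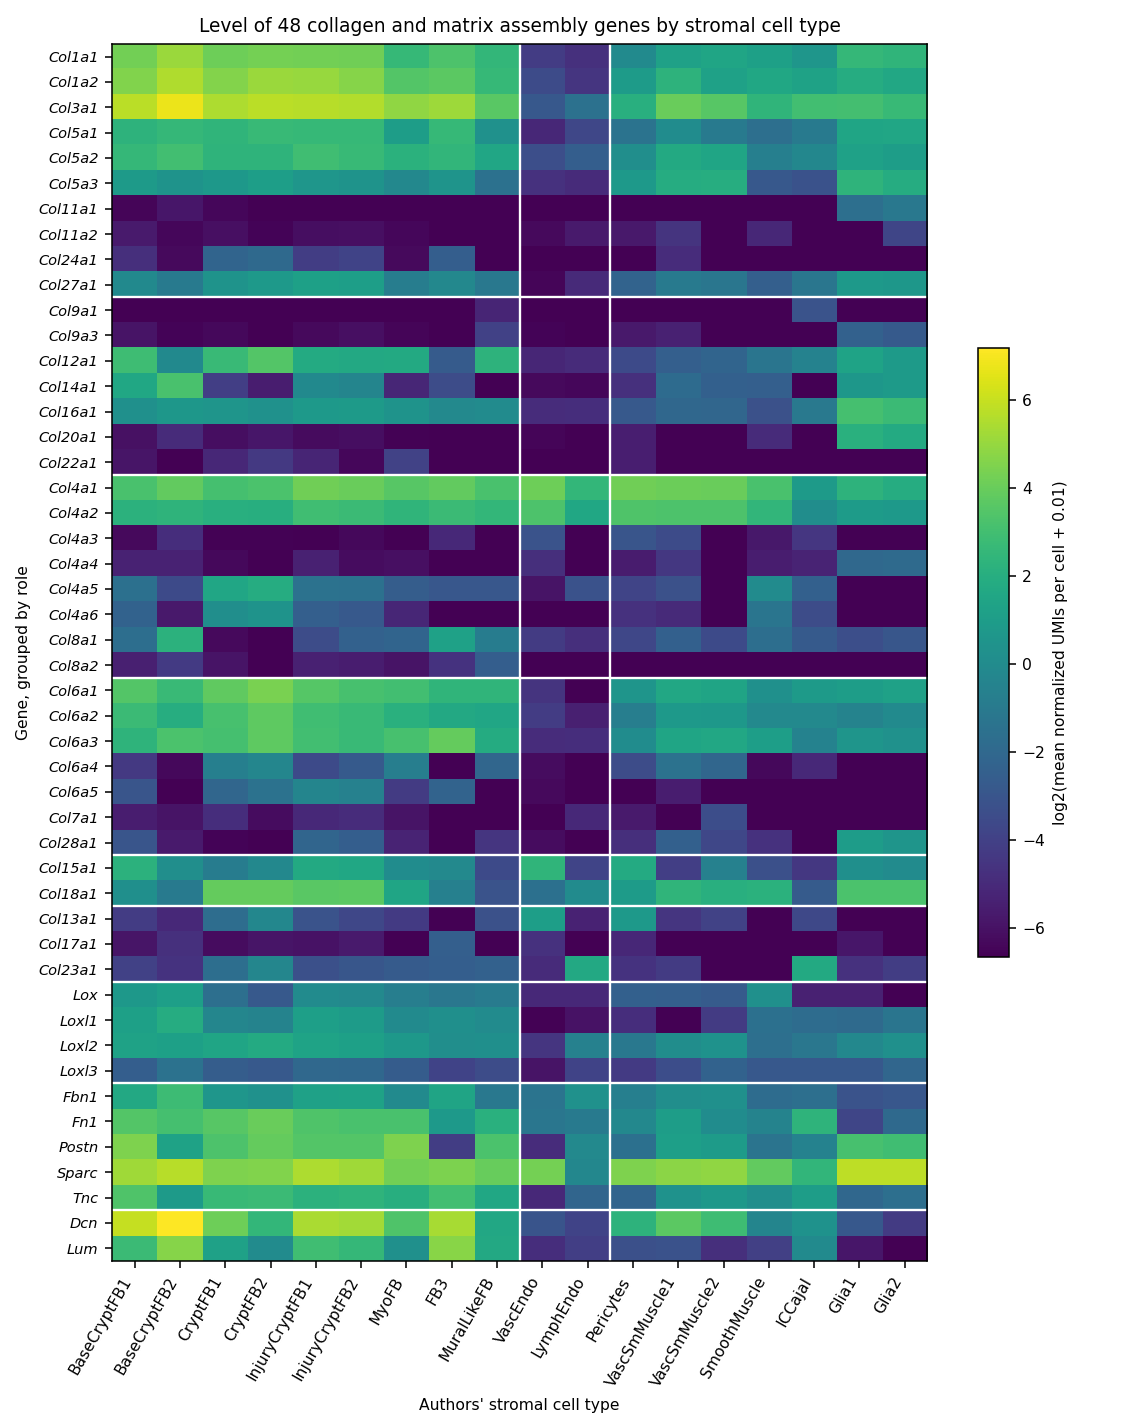
Heat map of the level of each of the 48 members (rows, grouped by role) in each of the 18 stromal types (columns, as the authors named them), as log2 of the mean normalized UMIs per cell plus 0.01. White lines separate roles and, among the columns, fibroblast, endothelial and other types. Each value is the mean over the mice, of any arm, with at least 20 cells of the type. Where no mouse had 20 cells, as for glia, it is over pooled cells. The FB3 and MuralLikeFB columns rest on 1 SZN-1326-p mouse each. Col3a1 and Dcn are brightest in BaseCryptFB2 (110 and 145), of which Col3a1 was not highest there in uninjured mice, Col18a1 in the CryptFB and InjuryCryptFB columns, and Col15a1 in VascEndo and BaseCryptFB1.

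The fibroblasts that held the collagen RNA were of different types with and without DSS. BaseCryptFB1 held 0.310% of stromal collagen UMIs in SZN-1326-p mice, 0% in anti-GFP mice and 57.0% ± 5.45 in uninjured mice, where it was 42.9% of stromal cells. In anti-GFP mice BaseCryptFB2 held 22.1% ± 9.18, InjuryCryptFB2 20.0%, CryptFB1 18.9%, InjuryCryptFB1 12.1% and CryptFB2 11.2%. In SZN-1326-p mice the same types held 21.3%, 21.7%, 19.9%, 10.7% and 9.70%, each within 1 SD of the anti-GFP mean. These shares follow the authors' clusters and carry no test. Collagens took 2.09% ± 0.193 of fibroblast UMIs in SZN-1326-p mice, 2.35% ± 0.217 in anti-GFP mice and 1.80% ± 0.352 in uninjured mice.

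**Figure D2:**
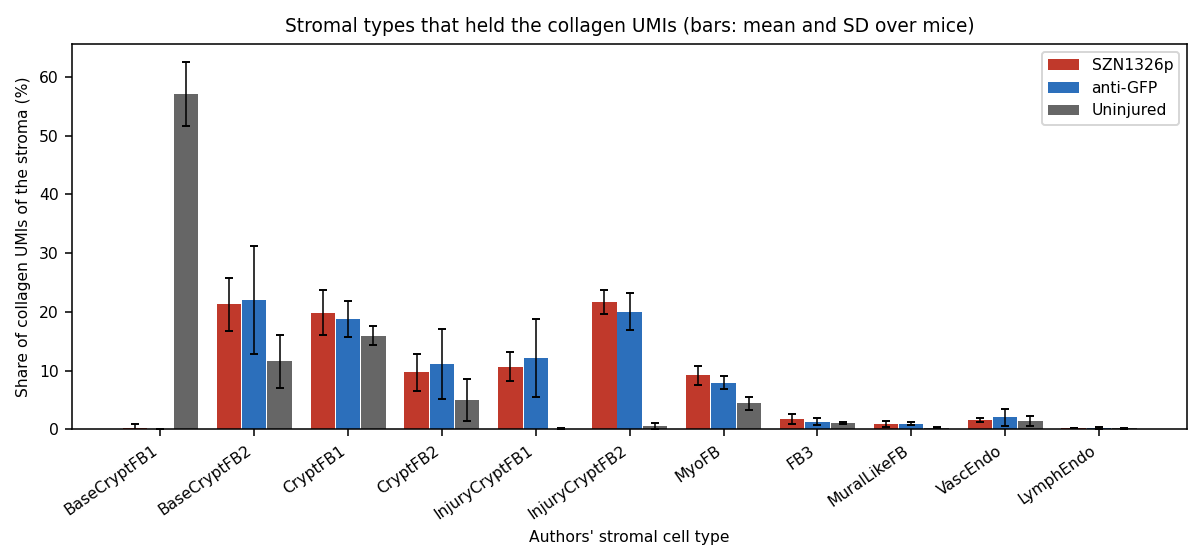
Share of the stromal collagen UMIs held by each stromal type (percent, mean and SD over mice) in SZN-1326-p, anti-GFP and uninjured mice. BaseCryptFB1 stands at 57.0% in uninjured mice and at 0.310% or less in both DSS arms, where 5 other fibroblast types share most of the collagen UMIs.

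The first comparison asked how the matrix programme of fibroblasts as a whole differed in DSS colitis, as anti-GFP minus uninjured mice. The multiplexin Col18a1, the type IV pair Col4a1 and Col4a2 and the transmembrane collagens Col13a1 and Col23a1 were higher with DSS, Col14a1, Col15a1, Postn, Dcn and Fbn1 were lower, and the abundant collagens of types I and III did not pass the test. The test was limma over 11110 genes on log2(level + 0.01) per mouse, with Benjamini-Hochberg adjusted p-values at a threshold of 0.05 (log2 differences are given with their SE). Of the 37 members tested, 8 rose and 5 fell, where 22.2% of all genes tested were called (12.4% higher, 9.79% lower). The median log2 difference of the members was 0.20, against 0.02 for all genes. The remaining 11 members (Col11a1, Col11a2, Col17a1, Col20a1, Col22a1, Col4a3, Col4a4, Col7a1, Col8a2, Col9a1 and Col9a3) were under the filter, a level of 0.05 in at least 2 mice. Since BaseCryptFB1 held most of the collagen UMIs in uninjured mice, each value was also computed with equal weights for 6 fibroblast types. These had cells in every anti-GFP and uninjured mouse: BaseCryptFB2, CryptFB1, FB3, InjuryCryptFB2, MuralLikeFB and MyoFB. BaseCryptFB1, CryptFB2 and InjuryCryptFB1 were left out, so that BaseCryptFB1 was removed and not reweighted. Some weights rest on few cells, with 2 of InjuryCryptFB2 and 2 of MuralLikeFB in uninjured mouse 2 at 24 h. This alternative was added after the data were seen.

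Col18a1 had the largest difference of the members. Its level was 8.48, 13.7 and 14.1 in anti-GFP mice (lowest, median, highest of 6), against 1.16, 0.964, 0.852 and 1.11 in the 4 uninjured mice. Every anti-GFP mouse was above every uninjured mouse, and the log2 difference was 3.56 (SE 0.18, adjusted p = 1.13e-10), an 11.8-fold higher level. Col4a1 was at 12.9, 15.6 and 18.6 in anti-GFP mice, against 10.4, 6.74, 6.92 and 7.11 in uninjured mice. These groups also did not overlap, although uninjured mouse 1 at 24 h was closer to the anti-GFP mice than the other 3. Its library was 1 of the 4 set apart as 1 group. Col4a1 rose 2.02-fold (log2 1.02, SE 0.17, adjusted p = 2.08e-04). Its partner Col4a2 averaged 6.37 ± 1.07 in anti-GFP mice and 3.93 ± 1.18 in uninjured mice, with the same uninjured mouse inside the anti-GFP range, and rose by log2 0.72 (SE 0.18, adjusted p = 0.00606).

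Further members that rose were expressed at low levels. Col6a5, a chain of type VI, averaged 0.424 ± 0.207 in anti-GFP and 0.0926 ± 0.0628 in uninjured mice (log2 2.14, SE 0.44, adjusted p = 0.00372). The transmembrane collagens Col13a1 (log2 1.66, adjusted p = 8.30e-06) and Col23a1 (log2 1.53, adjusted p = 3.17e-04) rose together, to 0.219 and 0.252 in anti-GFP mice against 0.0633 and 0.0777 in uninjured mice. The fibrillar chain Col27a1 averaged 1.62 ± 0.471 against 0.805 ± 0.0485 (log2 0.95, adjusted p = 5.03e-04), and the fibril-associated Col16a1 1.80 ± 0.161 against 1.14 ± 0.290 (log2 0.69, adjusted p = 0.00143). Col18a1, Col4a1 and Col27a1 were called under each alternative run.

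The members that fell were a fibril-associated collagen, a multiplexin, 2 glycoproteins and a proteoglycan. Col14a1 was at 0.768, 1.01 and 2.28 in anti-GFP mice, against 4.64, 2.83, 2.46 and 3.36 in uninjured mice, with no overlap (log2 -1.47, SE 0.28, adjusted p = 0.00134). Col15a1 was at 1.51, 1.65 and 2.02 in anti-GFP mice, against 3.57, 2.61, 2.48 and 2.81 in uninjured mice, again apart (log2 -0.73, SE 0.13, adjusted p = 4.73e-04). Postn was at 9.70, 10.9 and 13.2 in anti-GFP mice, against 20.6, 17.6, 16.2 and 16.2 in uninjured mice (log2 -0.65, SE 0.15, adjusted p = 0.00421).
Dcn, at 25.6, 36.5 and 51.4 in anti-GFP mice against 48.0, 61.7, 58.2 and 66.2 in uninjured mice, overlapped in part and fell by 0.64 on the log2 scale (SE 0.21, adjusted p = 0.0301). Fbn1 averaged 2.54 ± 0.411 in anti-GFP and 3.45 ± 0.743 in uninjured mice (log2 -0.43, SE 0.15, adjusted p = 0.0380). In all, 9 of the 13 called members (69.2%) had no overlap between anti-GFP and uninjured mice, where the same held for 63.2% of all called genes and 15.6% of all genes tested.

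With equal weights for 6 fibroblast types, the difference of Col15a1 turned to log2 0.60 (adjusted p = 0.183), and those of Postn (-0.11), Dcn (-0.05), Fbn1 (-0.17) and Col13a1 (1.04) no longer passed. With the 3 types that had at least 10 cells in every mouse, Col15a1 was at 0.33 (adjusted p = 0.224), Postn at -0.14, Dcn at -0.17 and Fbn1 at -0.40, none called, and Col6a5 at 0.66 was not called either. Without uninjured mouse 2 at 24 h, Col4a2 was at 0.52 (adjusted p = 0.0513). Dcn lost its call (-0.69 to -0.54) without anti-GFP mouse 1 or 2 at either time, uninjured mouse 2 at 24 h or either uninjured mouse at 48 h. Fbn1 lost its call (-0.51 to -0.32) without anti-GFP mouse 1 or 3 at 24 h or 1 or 2 at 48 h, uninjured mouse 1 at 24 h or either uninjured mouse at 48 h.

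Members that did not pass included most of the bulk matrix. Col3a1 averaged 55.1 ± 6.27 in anti-GFP mice and 48.2 ± 11.2 in uninjured mice, and the 95% interval of its log2 difference ran from -0.15 to 0.58. Col1a1 averaged 19.3 ± 2.71 against 16.9 ± 2.71, with an interval from -0.12 to 0.52, and Col1a2 28.1 against 22.0, with an interval from 0.01 to 0.70 (adjusted p = 0.130). Col6a3 (0.47, adjusted p = 0.0556), Col5a1 (0.45), Col8a1 (0.45), Col5a2 (0.38), Loxl3 (0.35), Col6a2 (0.16), Fn1 (0.15) and Loxl2 (0.11) had positive values. Sparc (-0.04), Col6a1 (-0.07), Loxl1 (-0.12), Col12a1 (-0.19), Lox (-0.33), Lum (-0.34) and Tnc (-0.42) had negative values.

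**Figure D3:**
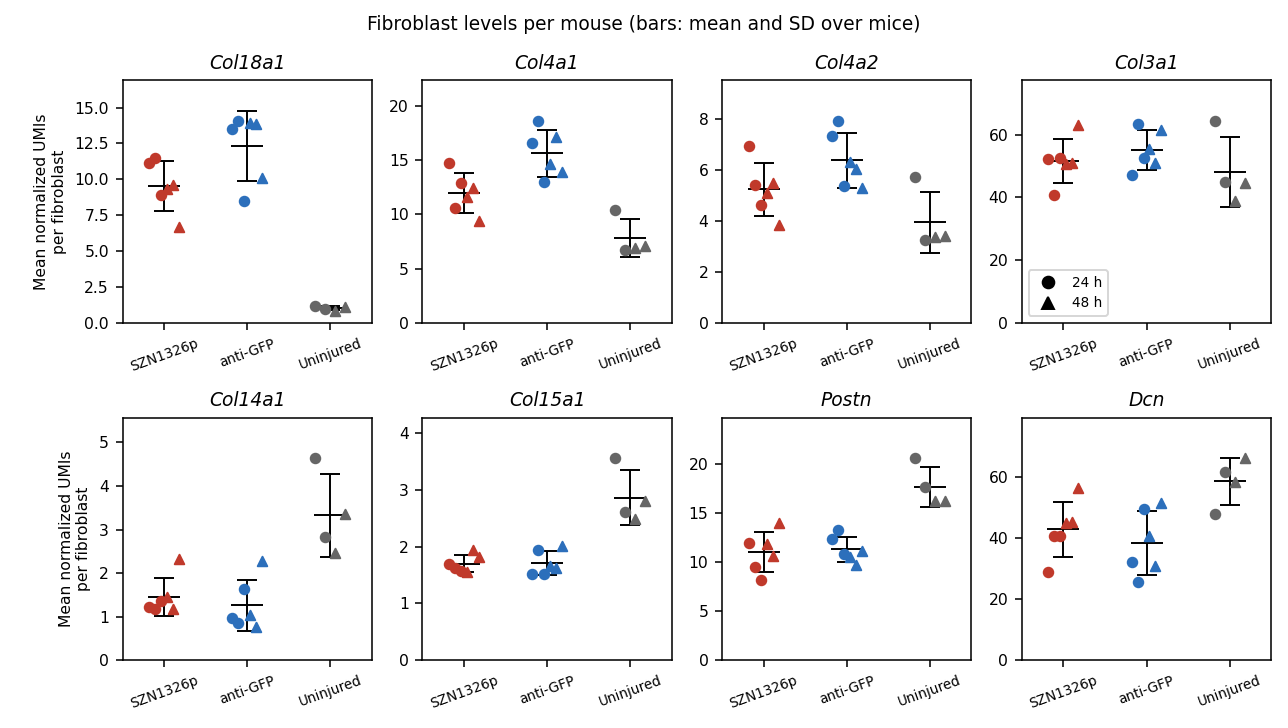
Level (mean normalized UMIs per cell) of 8 members in all fibroblasts of each mouse, for SZN-1326-p, anti-GFP and uninjured mice from left to right, with circles for 24 h, triangles for 48 h, and bars for the mean and SD of each arm. Col18a1 lies between 8.48 and 14.1 in anti-GFP mice and at 1.16 or below in uninjured mice, while Postn and Col14a1 lie higher in uninjured mice and Col3a1 overlaps between the arms.

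Within single fibroblast types the members called differed from type to type. BaseCryptFB2, CryptFB1 and MyoFB had at least 3 mice with 20 cells in both arms. Of 42 members tested in at least 1 of them, 31 were called in at least 1 type (73.8%, against 20.5% of all genes), 18 in 1 type (42.9% against 15.2%), 10 in 2 (23.8% against 4.1%) and 3 (Col27a1, Col4a1 and Col5a3) in all 3 (7.14% against 1.23%). Each of these fits had arm and time as terms.

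BaseCryptFB2 had 6 of its 7 tested fibrillar collagens higher with DSS and 1 lower. Of 35 members tested, 14 rose and 4 fell, where 7.18% of all genes were called (4.39% higher, 2.79% lower), and 15 of the 18 (83.3%) showed no overlap between the arms, against 63.8% of all called genes. The median log2 difference was 0.55, against 0.09 for all genes. Col3a1 was at 103, 137 and 173 in anti-GFP mice, against 61.4, 42.7, 34.7 and 45.6 in uninjured mice. All 6 anti-GFP mice were above all 4 uninjured mice, and the difference was log2 1.55 (SE 0.20, adjusted p = 3.31e-06). Col1a1 averaged 41.1 ± 10.6 in anti-GFP and 19.5 ± 4.70 in uninjured mice (log2 1.07, adjusted p = 8.39e-04), and Col1a2 52.7 ± 10.9 against 25.7 ± 6.65 (log2 1.04, adjusted p = 6.66e-04). The minor fibrillar chains Col27a1 (1.98), Col5a2 (0.98) and Col5a1 (0.75) rose with them. Col5a3 fell, at 1.03 ± 0.319 in anti-GFP and 2.40 ± 0.866 in uninjured mice (log2 -1.21, adjusted p = 0.00196).

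Of the 4 cross-linking enzymes Lox was called in BaseCryptFB2, and the basement membrane chains Col4a1 and Col4a2 rose there. Lox was at 1.97, 2.95 and 3.64 in anti-GFP mice, against 0.237, 0.505, 0.864 and 0.452 in uninjured mice, and its difference was the largest there (log2 2.58, SE 0.26, adjusted p = 4.26e-08). Col4a1 was at 15.7, 21.6 and 24.7 in anti-GFP mice, against 4.81, 3.08, 5.30 and 4.51 in uninjured mice (log2 2.21, SE 0.20, adjusted p = 7.58e-10). Neither gene overlapped between the arms. Col4a2 (1.77), Tnc (1.71), Col12a1 (1.09), Col16a1 (1.00), Col8a1 (0.81) and Sparc (0.66) also rose. Col14a1 (-0.82), Col6a1 (-0.59) and Col8a2 (-2.64, at 0.0073 against 0.0912, near the 0.01 added before the log) fell. Col18a1 was low in both arms, at 0.516 in anti-GFP and 0.436 in uninjured mice, with a 95% interval of the log2 difference from -0.37 to 0.94. When 1 mouse of these arms was left out at a time, the call of Col6a1 was lost (-0.68 to -0.47) without each but anti-GFP mouse 3 at 24 h or 48 h. Col12a1 was lost (0.86 to 1.14) without each but uninjured mouse 1 or anti-GFP mouse 3 at 24 h or anti-GFP mouse 2 at 48 h, and Col8a1 (0.64 to 0.87) without each but uninjured mouse 1 or anti-GFP mouse 1 or 3 at 24 h. Also lost were Sparc (uninjured mice 1 and 2 at 48 h, 0.59 and 0.58), Col5a1 (uninjured mouse 1 at 48 h, 0.63) and Col14a1 (uninjured mouse 1 at 24 h, -0.63).

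CryptFB1 had Col18a1, Col4a1 and 5 collagens of lower level higher with DSS, and Col4a5, Col4a6, Postn, Lum and Col14a1 lower. Of 36 members tested, 7 rose and 5 fell, where 15.1% of all genes were called (9.05% higher, 6.06% lower), and 8 of the 12 (66.7%) showed no overlap, against 57.1% of all called genes. The median was 0.02, against 0.05 for all genes. Col18a1 was at 17.5, 22.0 and 24.9 in anti-GFP mice, against 2.51, 0.715, 0.787 and 1.29 in uninjured mice. That is an 18.5-fold higher level with no overlap (log2 4.21, SE 0.26, adjusted p = 1.55e-10). Col23a1 (2.87), Col6a5 (2.10), Col13a1 (2.09), Col5a3 (0.82), Col4a1 (0.58) and Col27a1 (0.57) also rose.

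The members that fell in CryptFB1 included the paired type IV genes, whose mean levels over all mice were higher still in CryptFB2. Col4a5 averaged 2.45 ± 0.372 in anti-GFP and 4.27 ± 1.10 in uninjured mice (log2 -0.77, adjusted p = 0.00620), and Col4a6 0.913 ± 0.224 against 1.85 ± 0.939 (log2 -0.93, adjusted p = 0.0221). Postn averaged 8.58 ± 1.91 against 15.1 ± 3.38 (log2 -0.82, adjusted p = 0.00468) and Lum 1.45 ± 0.456 against 4.58 ± 0.520 (log2 -1.72, adjusted p = 4.66e-05). Col14a1 fell as well (log2 -2.14), at a low level in both arms (0.0182 in anti-GFP, 0.105 in uninjured mice). Col3a1 (-0.33, adjusted p = 0.195), Col1a1 (-0.05) and Col1a2 (0.09) were not called. Without anti-GFP mouse 2 at 48 h, 7 members were called, and Col4a1 (0.54), Col5a3 (0.77), Col6a5 (1.94), Col27a1 (0.56) and Col4a6 (-0.80) were not. Col4a1 (0.48 to 0.53) and Col5a3 (0.68 to 0.73) were also lost without uninjured mouse 2 or anti-GFP mouse 2 at 24 h or uninjured mouse 1 at 48 h, and Col4a6 (-0.60) without uninjured mouse 1 at 24 h. Col6a5 (1.19 to 2.17) and Col27a1 (0.44 to 0.57) were lost without those 3 mice, without anti-GFP mouse 1 at either time and, for Col27a1, without uninjured mouse 1 at 24 h.

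MyoFB, labelled as myofibroblasts, had 16 members higher with DSS, across most roles. Of 36 members tested, 16 rose and 1 fell, where 7.56% of all genes were called (4.76% higher, 2.81% lower), and 16 of the 17 (94.1%) showed no overlap, against 80.4% of all called genes. The median was 0.68, against 0.06 for all genes. Only 3 uninjured mice had 20 such cells. Col18a1 was at 2.43, 3.58 and 4.70 in anti-GFP mice, against 0.445, 0.346 and 0.560 in uninjured mice, with the groups apart (log2 2.90, SE 0.22, adjusted p = 7.04e-11). All 3 abundant chains of type VI collagen rose: Col6a3 averaged 11.4 ± 2.46 in anti-GFP and 2.91 ± 0.562 in uninjured mice (log2 1.89, adjusted p = 1.19e-08), Col6a2 rose by 0.86 and Col6a1 by 0.70. Col15a1 averaged 1.29 ± 0.235 against 0.331 ± 0.150 (log2 2.01, adjusted p = 5.49e-07), opposite in sign to its difference over all fibroblasts.

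Of the glycoproteins, Fn1 and Tnc rose in MyoFB. Fn1 averaged 11.2 ± 2.03 in anti-GFP and 4.15 ± 1.22 in uninjured mice (log2 1.41, adjusted p = 2.43e-06), and Tnc rose by log2 1.57. Col16a1 (1.69), Col5a3 (1.68), Col27a1 (1.46), Col4a2 (1.17), Col5a1 (1.04), Col4a1 (0.97), Loxl1 (0.78), Col5a2 (0.66) and Col3a1 (0.62) rose as well. Col23a1 fell by 2.43, at 0.0873 in anti-GFP and 0.420 in uninjured mice, but with mice of at least 10 cells included its difference was -1.07 (adjusted p = 0.460). Postn (0.22, adjusted p = 0.504), Sparc, Fbn1 and Dcn (0.12) were not called. The call of Loxl1 was lost (0.67 to 0.80) without anti-GFP mouse 2 at either time, anti-GFP mouse 3 at 48 h or either uninjured mouse at 48 h. Col5a2 was lost (0.57 to 0.66) without mouse 2 of either arm at 24 h, anti-GFP mouse 1 at 48 h or uninjured mouse 2 at 48 h, and Col3a1 (0.59) and Col6a1 (0.57) without uninjured mouse 1 at 48 h.

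**Figure D4:**
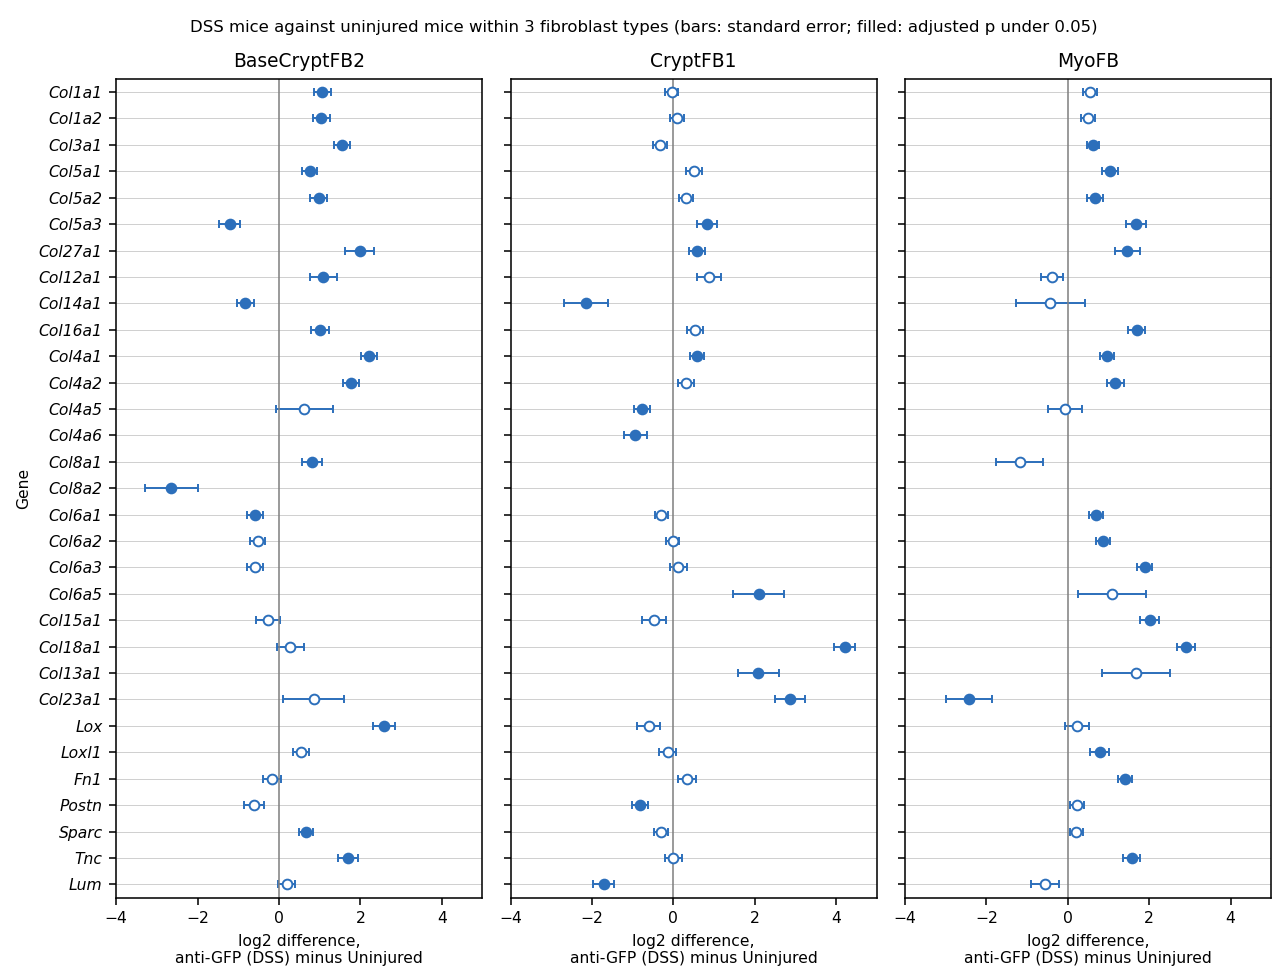
Log2 difference of anti-GFP minus uninjured mice, with SE, for the 31 members called in at least 1 of BaseCryptFB2, CryptFB1 and MyoFB. Filled points have an adjusted p under 0.05. Lox (2.58) and Col3a1 (1.55) stand to the right in BaseCryptFB2, Col18a1 (4.21) in CryptFB1, and Col6a3 (1.89) and Col15a1 (2.01) in MyoFB.

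The differences between the types were themselves tested, in comparisons added after the data were seen. The effect in BaseCryptFB2 minus that in CryptFB1 was called for 14 members, where 4.26% of all genes tested were called. Lox (3.19) and Col3a1 (1.87) led on the positive side and Col18a1 (-3.93) and Col5a3 (-2.03) on the negative side. The effect in MyoFB minus that in CryptFB1 was called for 15 members, where 3.8% of all genes tested were called, with Col15a1 at 2.42, Col6a3 at 1.62 and Col23a1 at -5.19. The effect in BaseCryptFB2 minus that in MyoFB was called for 15 members, where 3.21% of all genes tested were called. Here Lox was at 2.09 and Col12a1 at 1.83, and Col18a1 at -3.00 and Col5a3 at -2.63. Without uninjured mouse 2 at 24 h, that of Lox was 1.83 (adjusted p = 0.104). Called in opposite directions by type were Col5a3 (lower in BaseCryptFB2, higher in CryptFB1 and MyoFB), Col6a1 (lower in BaseCryptFB2, higher in MyoFB) and Col23a1 (higher in CryptFB1, lower in MyoFB). As given above, the call of Col6a1 in BaseCryptFB2 was lost when most single mice were left out. That of Col23a1 in MyoFB was lost with mice of at least 10 cells included.

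In blood endothelium (VascEndo), 28 members were tested and 1 rose, where 1.61% of all genes were called (1.01% higher, 0.601% lower). That was Col18a1, at 0.0356, 0.282 and 0.855 in anti-GFP mice, against 0.0504, 0.114, 0 and 0.0240 in uninjured mice (log2 2.66, SE 0.56, adjusted p = 0.00537). The groups overlapped at these low levels. Col4a1 (0.64, adjusted p = 0.169) and Col15a1 (0.56, adjusted p = 0.180), the main matrix members of this type, were not called.

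Over both endothelial types, 31 members were tested and 4 rose, where 3.26% of all genes were called (2.19% higher, 1.07% lower). Postn averaged 0.295 ± 0.173 in anti-GFP mice and was at 0, 0, 0.114 and 0.0608 in uninjured mice (log2 2.99, SE 0.66, adjusted p = 0.00699). Col23a1 averaged 0.779 ± 0.480 against 0.184 ± 0.0530 (log2 1.80, adjusted p = 0.00790), Fbn1 0.756 against 0.325 (log2 1.16, adjusted p = 0.0158) and Col3a1 0.246 against 0.0476 (log2 2.21, adjusted p = 0.0456). None of the 4 was called within VascEndo. Each was higher in LymphEndo than in VascEndo (Postn 0.911 and 0.0232), and the summed level of 4 lymphatic markers in the endothelial cells was 67.7 in anti-GFP and 28.3 in uninjured mice, while 6 fibroblast markers summed to 2.22 and 2.40. The part of this shift in the 4 results was not tested. Without uninjured mouse 1 at 48 h, 1 member was called, and Col23a1 (1.76), Fbn1 (0.92) and Col3a1 (2.37) were not. Without uninjured mouse 2 at 24 h (Fbn1 1.07, Col23a1 1.56) or anti-GFP mouse 1 at 48 h (Fbn1 1.05, Col3a1 2.24), 2 were called. Col3a1 was also lost (1.57 to 2.06) without uninjured mouse 1 or anti-GFP mouse 2 or 3 at 24 h, or mouse 2 of either arm at 48 h.

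The second comparison asked whether SZN-1326-p changed the matrix genes of DSS mice, as SZN-1326-p minus anti-GFP mice. No member was called by limma in fibroblasts at either time, over both times, in the difference between the times, in endothelial cells or in any of the 7 types fitted. Limma with voom weights on UMI sums also called 0 in all fibroblasts and all endothelial cells. Few genes of any kind were called: 0.135% of 11110 over both times, 0.009% at 24 h, 0.09% at 48 h and 0% for the difference between the times. This comparison shares the anti-GFP mice with the DSS comparison, so the 2 sets of values are given side by side and not related to each other.

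Over both times, the members' values in fibroblasts leaned to lower levels with SZN-1326-p. Of 37 members tested, 32 had a negative log2 difference, with a median of -0.22 against -0.01 for all genes. Members with an unadjusted p under 0.05 were 6 of 37 (16.2%), against 11.35% of all genes. Col13a1 had -0.52 (95% interval -0.90 to -0.14, adjusted p = 0.356), Col6a4 -0.51 (-0.97 to -0.06), Col4a1 -0.39 (-0.71 to -0.08, adjusted p = 0.387), Col18a1 -0.37 (-0.70 to -0.04, adjusted p = 0.414), Tnc -0.34 (-0.65 to -0.03) and Col16a1 -0.27.

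The levels of the leading members overlapped between the 2 DSS arms. Col4a1 was at 9.43, 12.0 and 14.7 in SZN-1326-p mice (lowest, median, highest of 6), against 12.9, 15.6 and 18.6 in anti-GFP mice. Col18a1 was at 6.65, 9.46 and 11.5 in SZN-1326-p mice, against 8.48, 13.7 and 14.1 in anti-GFP mice. Most SZN-1326-p mice were below most anti-GFP mice for both, and all were above the uninjured range of Col18a1.

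The abundant interstitial members were close in the 2 arms. Col3a1 averaged 51.7 ± 7.04 in SZN-1326-p and 55.1 ± 6.27 in anti-GFP mice, Col1a1 17.3 ± 1.36 against 19.3 ± 2.71, and Postn 11.0 ± 2.07 against 11.3 ± 1.28. Their log2 differences were -0.10 (-0.42 to 0.23), -0.15 (-0.44 to 0.14) and -0.05 (-0.33 to 0.23). Positive values belonged to Lum (0.34, -0.05 to 0.73), Col14a1 (0.27), Sparc (0.18), Dcn (0.17) and Lox (0.04). Loxl1 (-0.02), Loxl3 (-0.01), Fn1 (-0.13), Fbn1 (-0.14), Col6a1 (-0.08), Col6a3 (-0.23) and Col5a2 (-0.13) had intervals that span 0. For 36 of the 37 members the 95% interval lay within a log2 difference of 1 in either direction, with half-widths from 0.25 to 0.85 (median 0.33).

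At 24 h, 1 member, Col6a4 (-0.92, adjusted p = 0.685), had an unadjusted p under 0.05 of 37 tested (6.679% of all genes), and at 48 h 5 did (8.407% of all genes). Col8a1 had the smallest p at 48 h: it was at 0.528, 0.411 and 0.555 in SZN-1326-p mice, against 0.713, 1.12 and 1.04 in anti-GFP mice. The 3 SZN-1326-p mice were below the 3 anti-GFP mice, but the share of all genes apart at 48 h is not given here. The log2 difference of Col8a1 was -0.92 (95% interval -1.50 to -0.33, adjusted p = 0.266). For equal weights, 4 fibroblast types had at least 10 cells in every SZN-1326-p and anti-GFP mouse: BaseCryptFB2, CryptFB1, InjuryCryptFB2 and MyoFB. With these, Col8a1 was called at 48 h (-0.82, adjusted p = 0.0335). The others were Col13a1 (-0.65), Col18a1 (-0.57, -1.04 to -0.10), Tnc (-0.51) and Col4a1 (-0.46). The difference between the 2 times had an unadjusted p under 0.05 for 1 member (4.95% of all genes), and the smallest adjusted p was 0.982.

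**Figure D5:**
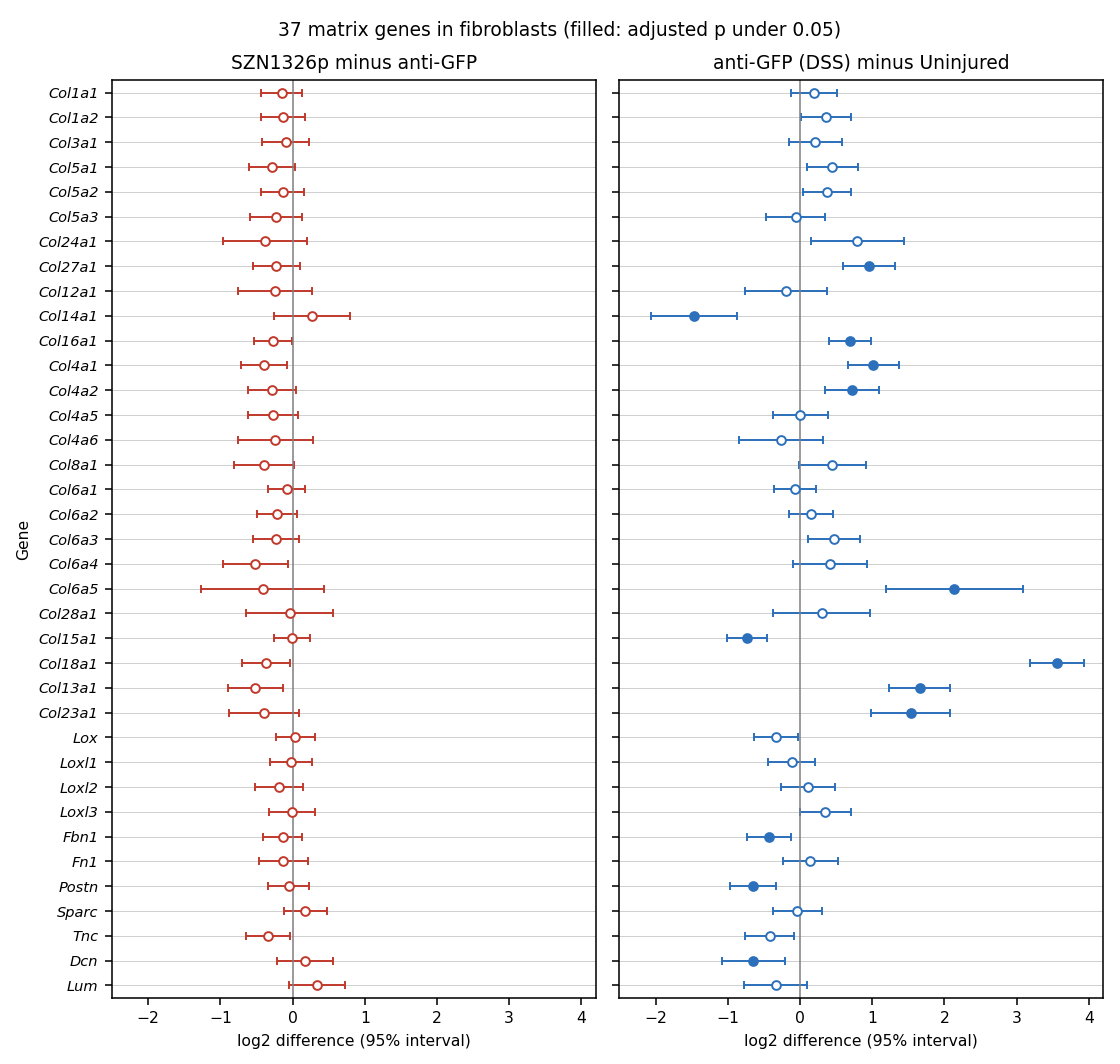
Log2 difference with 95% interval of the 37 members tested in fibroblasts, for SZN-1326-p minus anti-GFP (left) and anti-GFP minus uninjured mice (right), which share the anti-GFP mice. The left panel holds no called member and its values run from -0.52 to 0.34, while the right panel runs from -1.47 (Col14a1) to 3.56 (Col18a1).

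Within single types no member was called for SZN-1326-p either, where 0.0277% of all genes were called in InjuryCryptFB1, 0.0263% in CryptFB1, 0.0262% in InjuryCryptFB2, 0.00891% in MyoFB and 0% in the other 3 types fitted. InjuryCryptFB2, present in all 12 DSS mice and too rare for a fit in uninjured mice, had 8 of 37 members with an unadjusted p under 0.05, against 9.9% of all genes. Its Col4a1 was at 11.0, 13.9 and 14.7 in SZN-1326-p mice, against 15.3, 19.8 and 21.8 in anti-GFP mice. The 2 arms did not overlap for Col4a1, but the share of all genes whose arms lay apart in this comparison is not given here. Its difference was log2 -0.51 (-0.82 to -0.20, adjusted p = 0.298), while Tnc had -0.59 (-0.94 to -0.24, adjusted p = 0.270) and Col18a1 -0.39. Without anti-GFP mouse 3 at 24 h, Tnc (-0.72) and Col4a1 (-0.58) were called there.

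InjuryCryptFB1, fitted on 6 SZN-1326-p and 3 anti-GFP mice, had 12 such members of 37, against 8.175% of all genes, with Col18a1 at -0.86 (-1.42 to -0.31, adjusted p = 0.346), Col4a1 at -0.65 and Col27a1 at -0.69, and with Col14a1 (1.00, adjusted p = 0.179), Lum (0.71) and Dcn (0.66) positive. There were 6 of 35 in CryptFB2 (Col6a5 -1.53, Col13a1 -0.90), against 8.149% of all genes, and 3 of 35 in BaseCryptFB2 (Tnc -0.85, adjusted p = 0.695; Col4a1 -0.46), against 3.706%. CryptFB1 and MyoFB had 1 of 36 each, against 7.533% and 6.104% of all genes in those types. VascEndo had 3 of 28, against 5.215%, and both endothelial types together 0 of 31, against 5.021%.

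Lists of other matrix genes were set beside the members in the same fit of fibroblasts, anti-GFP minus uninjured mice, where 22.2% of all genes were called. Of 15 basement membrane genes tested, 9 rose and 0 fell, led by Lama1 (3.10), a laminin chain, Nid2 (2.37), a nidogen that links laminin and type IV collagen, Smoc1 (2.13) and Lamb1 (0.85). Of 31 genes of collagen processing, 6 rose and 2 fell. They included Tmem38b (0.87), Adamts14 (0.81), a procollagen N-proteinase, P3h1 (0.64), a prolyl hydroxylase, and Fkbp10 (0.58) among those that rose, and Fkbp7 (-0.58) and Kdelr3 (-0.52), which fell. Of 16 matrix receptors, 8 rose and 2 fell, with the syndecan Sdc1 at 3.07, Mrc2, which takes up collagen, at 1.07, Sdc4 at 1.05 and the collagen-binding integrin chain Itga11 at -1.74.

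Of 16 elastic fibre genes, 3 rose, 5 fell and 8 were not called (among those that fell were Mfap5 at -2.19, Fbln5 at -1.47, Ltbp4 at -1.06 and Mfap4 at -0.90), and Emilin1 was at 0.87. Of 6 further small leucine-rich proteoglycans, 0 rose and 4 fell (Aspn -2.04, Ecm2 -1.56, Ogn -1.51, Prelp -1.07). Of 16 matricellular genes, 3 rose and 9 fell (Ctgf -2.90, Nov -1.92, Thbs2 -1.28), and of 18 genes of Tgfb signalling, which drives collagen transcription, 2 rose (Tgfbr3 0.95, Tgfbr1 0.67) and 5 fell (Tgfb3 -1.06, Smad7 -0.65).
Within types, of all genes tested, 4.39% were called higher and 2.79% lower in BaseCryptFB2. These shares were 9.05% and 6.06% in CryptFB1, and 4.76% and 2.81% in MyoFB. Beside them, 1 of 14 basement membrane genes rose in BaseCryptFB2, 6 of 14 in CryptFB1 and 4 of 12 in MyoFB, with 0 lower in each. Collagen processing genes rose and fell in 5 and 2 of 32, 5 and 1 of 29, and 8 and 0 of 29 in those types. Matricellular genes fell in 5 of 15, 7 of 14 and 3 of 13, and the proteoglycans fell in 3 of 9, 5 of 7 and 2 of 6. None of these genes was called for SZN-1326-p in fibroblasts over both times by limma. At an unadjusted p under 0.05 were 2 of 31 collagen processing, 3 of 16 elastic fibre, 3 of 15 basement membrane, 1 of 6 proteoglycan, 4 of 16 matricellular, 3 of 16 receptor and 2 of 18 Tgfb signalling genes. Of all genes in that fit, 11.35% were.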

How the data were processed

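Single cells of the transverse colon of 16 mice were counted, per the submitters' processing notes, with Cell Ranger 3.0.2 on the mm10 genome. The deposited matrix of the authors held 16039 genes in 22717 cells in the unit log2, as log2(UMI count / size factor + 1) for each gene and cell. Within a cell, 100% of un-logged values were whole multiples of the value of 1 UMI (tolerance 1e-06). The deposited annotation, in the unit other (text labels), gave the authors' cell type and mouse of each cell. Its treated batches were named SWAP, which was read as SZN-1326-p because the other 2 arms matched by name, with day, hours and replicate number. Filters on cells and the treatment of doublets are not given in the sources used here.

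Un-logged values were averaged over the cells of a mouse in all fibroblasts, all endothelial cells or a single type, for at least 20 cells per mouse. Genes with a mean of at least 0.05 in at least 2 mice were kept, and log2(mean + 0.01) was tested with limma 3.58.1 (trend, robust) in R 4.3.3. Fits of all fibroblasts and of all endothelial cells had 6 groups of arm and time. Fits of a type had arm and time as terms and needed 3 mice per arm. P-values were Benjamini-Hochberg adjusted over all genes tested, at 0.05. Count tests had been planned in case of raw counts, and limma was used since the unit is log2. Each mouse was 1 replicate, and replicate numbers do not pair mice: deviations of same-numbered mice correlated from -0.316 to 0.312. Tables were made in Python 3.11.15 with numpy 2.4.6, scipy 1.17.1 and pandas 2.3.3, figures with matplotlib 3.10.9. The script of the fits was tested on simulated data.

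Members, gene lists and comparisons were chosen with earlier results of these data known. Every member was counted. Named were the abundant and textbook members whatever their result, further members past the test by size of change (up to 10 per direction), and up to 4 past the test of each pathway list. Start regions came from RefSeq (GRCm38.p6).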

Additional observations from a re-analysis of the deposited data

Results flagged for a closer look

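Among 81 groups of 4 to 6 mice examined for a stray value in fibroblasts, 10 had 1 mouse far from the others of its arm, where chance flags about 1 in 20 groups. In 5 of them uninjured mouse 1 at 24 h, 1 of the 4 libraries set apart as 1 group, was the highest of the uninjured mice: Col4a1 (10.41 normalized UMIs per cell), Col4a2 (5.702), Col5a2 (6.772), Col7a1 (0.0211) and Loxl2 (3.272). SZN-1326-p mouse 3 at 48 h, with a median mitochondrial share of 24.1%, was the highest of its arm for Col14a1 (2.315) and Loxl3 (0.2717). The others were Col5a1 (6.057, highest, SZN-1326-p mouse 1 at 24 h), Col6a1 (9.009, lowest, anti-GFP mouse 3 at 24 h) and Sparc (21.26, lowest, anti-GFP mouse 1 at 24 h).

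The effect of DSS (anti-GFP minus uninjured mice, log2) differed between fibroblast types by a test of the difference itself. BaseCryptFB2 exceeded CryptFB1 for Lox (3.19), Lum (1.91), Col3a1 (1.87), Tnc (1.71), Col4a1 (1.62), Col4a2 (1.46), Col27a1 (1.41), Col1a1 (1.11), Sparc (0.97), Col1a2 (0.96) and Col5a2 (0.66), and was below it for Col6a3 (-0.71), Col5a3 (-2.03) and Col18a1 (-3.93). MyoFB exceeded CryptFB1 for Col15a1 (2.42), Col6a3 (1.62), Tnc (1.55), Postn (1.02), Col16a1 (1.00), Fn1 (0.97), Col27a1 (0.97), Col6a1 (0.88), Col6a2 (0.83), Col3a1 (0.82), Col4a2 (0.67), Sparc (0.60) and Col1a1 (0.52), and was below it for Col18a1 (-1.67) and Col23a1 (-5.19). BaseCryptFB2 exceeded MyoFB for Lox (2.09), Col12a1 (1.83), Col4a1 (1.28), Col3a1 (1.12), Col1a2 (0.75), Col4a2 (0.70) and Sparc (0.51), and was below it for Fbn1 (-0.87), Col6a1 (-1.17), Col6a2 (-1.29), Fn1 (-1.66), Col15a1 (-2.09), Col6a3 (-2.29), Col5a3 (-2.63) and Col18a1 (-3.00).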

How the results depend on the processing

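For DSS in fibroblasts, 13 members were called. The replicate block, with replicate numbers that do not pair mice, called 20, 48 h mice alone called 5, and fits that left out 1 mouse called 11 to 17. Over the 312 alternative values of these 13 members, 265 remained called, 45 kept their direction without a call and 2 reversed: Col15a1 was at 0.60 with equal weights of 6 fibroblast types and at 0.33 with the 3 types of at least 10 cells per mouse. The cause was not tested. In endothelial cells, 4 members were called, against 2 with the compared groups alone, with equal weights of types, with voom, with the mean of the deposited log2 values and with 24 h mice alone, 0 with 48 h mice alone, and 1 to 4 without 1 mouse. In VascEndo, 1 was called, against 2 with the replicate block, 2 with a term for the 4 libraries set apart as 1 group, and 1 to 3 without 1 mouse. Without 1 mouse, 13 to 18 members were called in BaseCryptFB2 (18 with all mice), 7 to 15 in CryptFB1 (12) and 14 to 19 in MyoFB (17), and 13 to 15, 11 to 16 and 12 to 15 for the differences between types. None of these reversed under an alternative run.

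For SZN-1326-p the alternatives called 0 members, except 1 at 48 h with the 4 types of at least 10 cells weighted equally, and 0 to 2 in InjuryCryptFB2 without 1 mouse. The replicate block changed no other count by more than 1.5 times. Removing cells with 2 markers of another lineage took out 3762 of 5828 fibroblasts, and 10 members were then called for DSS. A fit with at least 50 cells per mouse was not run for DSS in endothelial cells, the fit without cells of mixed markers was not run for DSS in endothelial cells and several types, and leaving out mice of high mitochondrial share was not run for DSS. Few cells per mouse and type, and 3 or 4 uninjured mice, limit the precision.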
